A study of Arabidopsis thaliana with 24 samples.

Results

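The genes described here are those whose transcripts were lowered most by 2 (coronatine) in both genotypes of Arabidopsis seedlings, 80 of the 27416 genes in the table. They were chosen from the normalised read counts of the libraries with 2 and with mock. For each genotype the mean over the 3 libraries with 2 plus 5 was divided by the mock mean plus 5, and the log2 of this ratio had to be -1.7 or lower in jaz9-1 and in Col-0. The Col-0 mock mean had to be at least 50, which 15182 genes reached. Of these, 154 met the limit in jaz9-1 and 184 in Col-0, and 100 genes met both limits when the mock mean was left free. The fall with 2 is therefore what chose the genes and is given below as a description without a test, whereas the values with the other compounds did not enter the choice.

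The libraries came from whole 6-day-old seedlings, 5 to 8 pooled per library, grown in liquid Murashige-Skoog medium and kept with a compound or with mock for 8 h. The compounds were 2, its stereoisomer 2e and a compound labelled 12, which the series text counts among the derivatives of coronatine, each at 1 µM according to that text. They were given to jaz9-1, in which the repressor gene JAZ9 carries a T-DNA, and to Col-0, the wild type. Each of the 8 groups has 3 libraries, and jaz9-1 is a single insertion line, so its effects cannot be told apart from those of its background. The series addresses which responses to coronatine are shared by 2e, which the study selected as a ligand of the COI1-JAZ9 pair.

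Coronatine is a bacterial toxin that mimics the jasmonate hormone jasmonoyl-isoleucine. It bridges the F-box protein COI1 and JAZ repressors, the JAZ proteins are degraded, and transcription factors such as the MYC proteins, which bind the G-box, are set free. Jasmonate is known for switching on wound and defence genes and for slowing the growth of seedlings, while cell enlargement needs wall-loosening proteins such as xyloglucan endotransglucosylase/hydrolases (XTHs), which cut and rejoin xyloglucan chains, and expansins.

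The members fall into several kinds of gene by their RefSeq products, sorted by hand after the list was known. They include 7 XTH and expansin genes, 8 other genes of wall proteins and wall oxidases, 5 lipid, cutin and suberin genes, 7 growth and hormone genes, 10 defence and surface sensing genes, 5 transcription factors, 4 transport genes and 9 other enzymes. A further 12 genes are uncharacterized in RefSeq and 13 are of other kinds. XBAT34, whose RefSeq product is also uncharacterized, was put with the defence genes. Of the 80 loci, 79 matched a RefSeq gene. The unmatched locus, AT1G73602, held between 0.967 and 1 of the counts of AT1G73600, a predicted methyltransferase gene, in each library, and reads over several genes were counted for each of them, so this pair is 1 measurement.

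The 250 bases before the start of each gene were read from the RefSeq assembly TAIR10.1 and searched on both strands for short motifs. The G-box CACGTG was found before 1 of 79 members (1.27%) and before 7.34% of 19921 tested genes. The related letters ACGTGG were found before 3 members (3.8%) against 9.04% of tested genes. The W-box letters TTGACT were found before 22 members (27.8%) against 18.8% of tested genes, and TTGACC before 6 members (7.59%) against 12.1%, so that 23 members (29.1%) had at least 1 of both forms, against 28.2% of tested genes. TGTCTC was found before 9 members (11.4%) against 10.6%, TATAAA before 36 (45.6%) against 46.6%, and GCCGCC before 0 of 79 against 1.94%. A match describes these letters only and is not a binding site.

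The upstream sequences of 4 members are shown because they carry the motifs counted above, G-box or W-box letters being in capitals (AGTCAA and GGTCAA are TTGACT and TTGACC read on the other strand). FRO6, a ferric reductase gene, is the member with a G-box, and the other 3 belong to a set of genes that stood apart in 1 library, described further on.
FRO6 (chr5:20204596-20204845, minus strand): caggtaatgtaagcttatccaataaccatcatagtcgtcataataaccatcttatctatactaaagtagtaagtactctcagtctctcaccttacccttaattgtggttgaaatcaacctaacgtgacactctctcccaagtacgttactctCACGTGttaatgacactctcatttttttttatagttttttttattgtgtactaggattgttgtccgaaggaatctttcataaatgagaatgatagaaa
CYP81F2 (chr5:23187590-23187839, plus strand): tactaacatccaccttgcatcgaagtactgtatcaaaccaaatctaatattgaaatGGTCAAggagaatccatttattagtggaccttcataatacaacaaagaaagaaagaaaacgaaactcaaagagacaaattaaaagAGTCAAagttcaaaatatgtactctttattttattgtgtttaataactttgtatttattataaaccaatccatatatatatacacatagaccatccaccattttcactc
CYP71B24 (chr3:9599989-9600238, minus strand): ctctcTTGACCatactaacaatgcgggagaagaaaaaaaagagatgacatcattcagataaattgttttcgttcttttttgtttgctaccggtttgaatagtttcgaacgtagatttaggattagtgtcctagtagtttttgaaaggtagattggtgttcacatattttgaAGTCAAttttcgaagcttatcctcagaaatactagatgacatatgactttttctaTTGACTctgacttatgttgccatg
AT2G43620 (chr2:18095094-18095343, minus strand): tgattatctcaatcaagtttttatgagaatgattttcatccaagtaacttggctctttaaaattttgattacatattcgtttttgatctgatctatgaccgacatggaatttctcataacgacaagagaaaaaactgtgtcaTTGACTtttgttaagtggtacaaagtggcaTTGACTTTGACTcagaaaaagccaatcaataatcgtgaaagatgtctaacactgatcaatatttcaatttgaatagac

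The libraries held 6226126 to 29404141 counts, with the fewest in a jaz9-1 library treated with 2. JAZ9 itself had a median normalised count of 575 in jaz9-1 against 2531 in Col-0 with 2, and 30.9 in jaz9-1 against 65.8 in Col-0 with mock, so the line was lower but not empty. Seedling markers were present, among them 6 of 6 shoot and 6 of 6 root genes tested. With 2 the summed level of the root list, which holds PYK10, was 6248 to 7025 CPM (counts scaled to a common library total) in jaz9-1 against 3486 to 4500 with mock, and 5537 to 5862 in Col-0 against 2621 to 3135 with mock. PYK10 had 25506 to 134837 counts per library and the next highest root gene, SCR, 97 to 734, so this sum was almost wholly PYK10. In this list 1 of 6 genes was higher with 2 in each genotype and 0 were lower, and 1 was higher with 2e in Col-0. The shoot list had 3 of 6 genes higher with 2 in jaz9-1, 1 higher and 2 lower with 2 in Col-0, and 3 lower with 12 in Col-0. The phloem list had 2 of 3 genes higher with 2 in both genotypes, the endodermis list 2 of 7 lower in jaz9-1 and 0 of 7 in Col-0, and the root hair list 0 of 8 lower in jaz9-1 and 1 of 8 in Col-0. With 12, 1 of 7 endodermis genes was lower in each genotype. The part of these shifts in the values of the members was not tested, and in whole seedlings fewer cells of a type and less RNA per cell cannot be told apart.

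Together the 79 separate members took 0.0643% to 0.0696% of all counts in jaz9-1 with 2, against 0.338% to 0.376% with mock. In Col-0 they took 0.0677% to 0.0738% with 2, against 0.398% to 0.444% with mock. With 2e the share was 0.246% to 0.321% in jaz9-1 and 0.293% to 0.316% in Col-0. With 12 it was 0.262% to 0.28% in jaz9-1 and 0.293% to 0.317% in Col-0. The shares with 2e and with 12 thus lay far above those with 2 and below those with mock in every library.

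**Figure D1:**
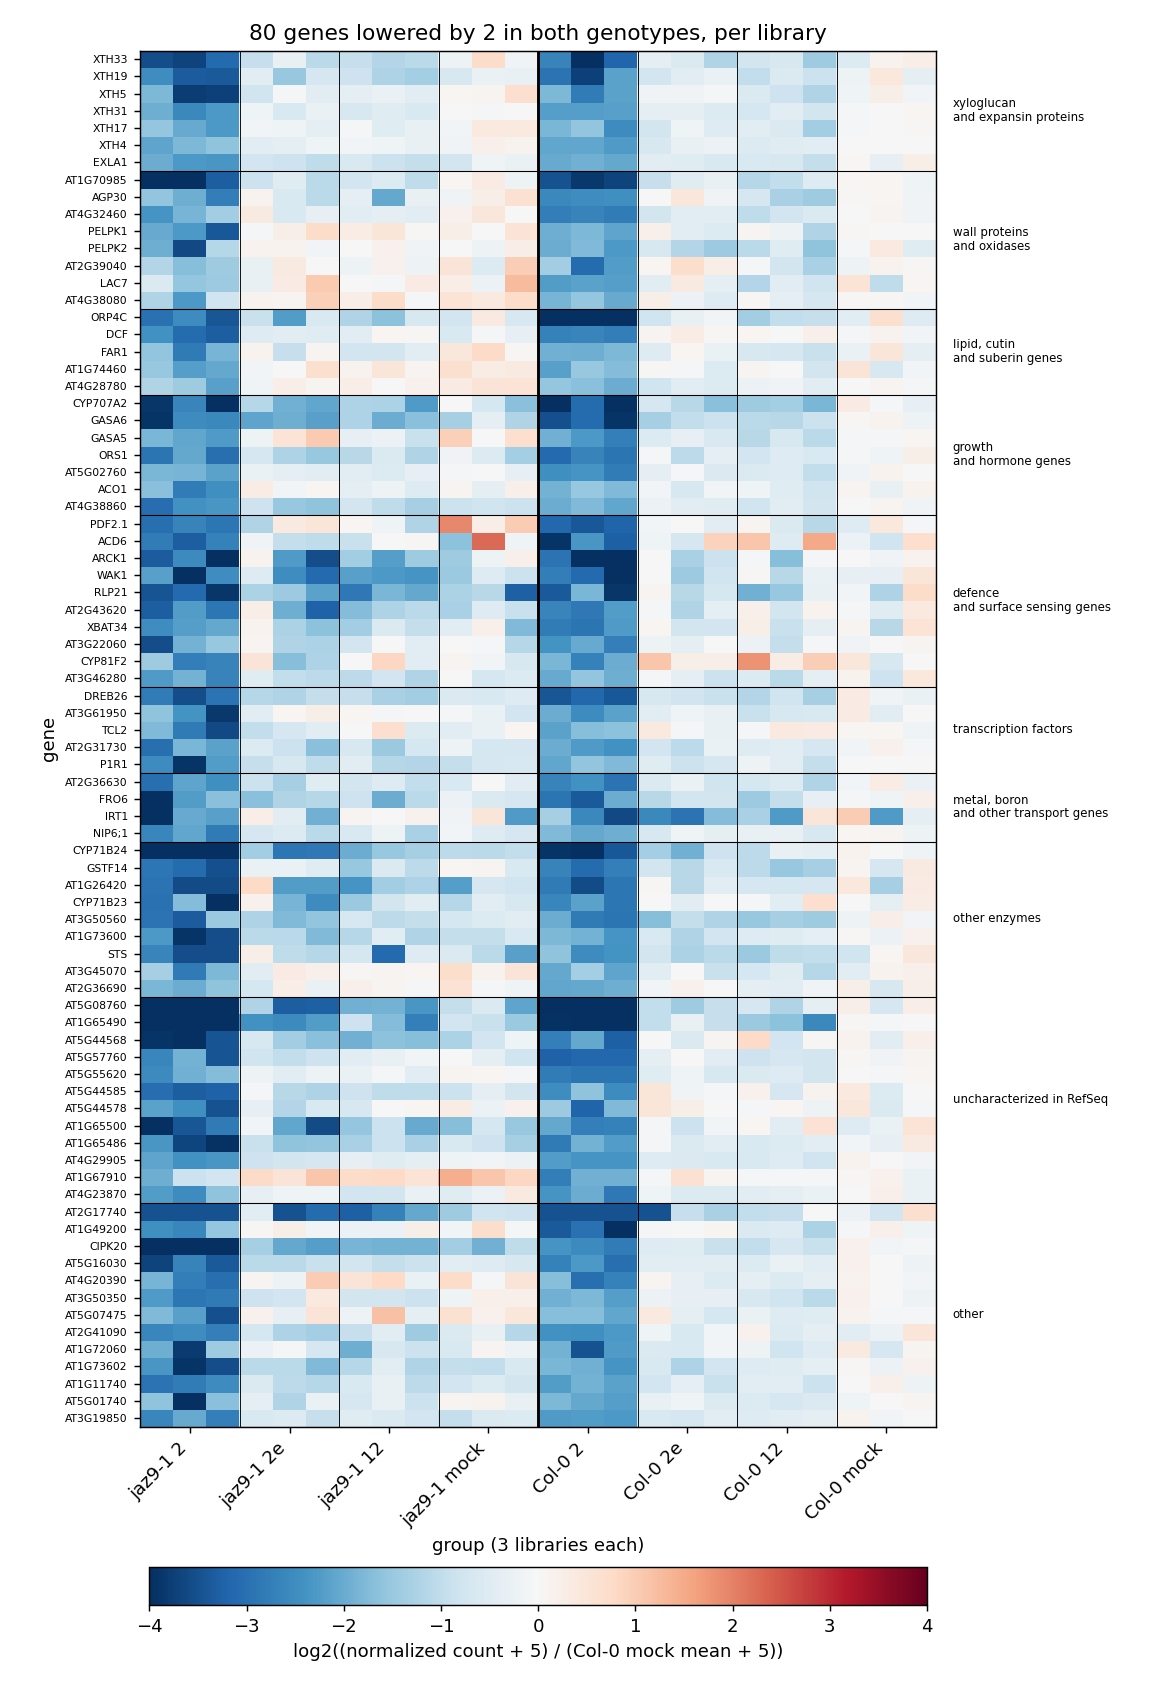
Level of each member in each of the 24 libraries as log2 of the normalised count plus 5 over the Col-0 mock mean plus 5 (colour), with genes down the page in their kinds and the 8 groups of 3 libraries across. The columns of 2 are mostly dark blue because they chose the genes, and the columns of 2e and 12 are much paler.

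On the scale of the rule the median log2 ratio with 2 was -2.19 in jaz9-1 (range -4.30 to -1.71) and -2.35 in Col-0 (range -4.49 to -1.71). The ratio was lower in jaz9-1 than in Col-0 for 34 of the 80 members. By the fit across all genes, 14.2% of tested genes were lower and 14.9% higher with 2 in jaz9-1, and 11.2% lower and 11.9% higher in Col-0. All 80 members were among the lower ones in both genotypes, which the rule had fixed.

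The lowest mean log2 ratios over both genotypes belonged to AT5G08760 and AT1G65490, which are uncharacterized. AT5G08760 had 5.33, 1.79 and 5.31 normalised counts with 2 against 191, 249 and 84.3 with mock in jaz9-1, and 15.1, 16.8 and 11.5 with 2 against 442, 236 and 453 with mock in Col-0. AT1G65490 had 8.89, 10.7 and 0 with 2 against 201, 185 and 121 with mock in jaz9-1, and 17.9, 5.17 and 9.1 with 2 against 356, 333 and 356 with mock in Col-0. The log2 ratios of AT5G08760 were -4.30 in jaz9-1 and -4.29 in Col-0, and those of AT1G65490 were -3.92 in jaz9-1 and -4.49 in Col-0. Every library with 2 was below every mock library for both genes.

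Known genes followed. AT1G70985, which encodes a hydroxyproline-rich glycoprotein, had ratios of -3.91 in jaz9-1 and -3.67 in Col-0. PDF2.1, a defensin-type small protein, had -4.08 in jaz9-1 and -3.24 in Col-0, and ACD6, an ankyrin-repeat membrane protein that promotes salicylate signalling and cell death, had -3.91 in jaz9-1 and -3.02 in Col-0. ORP4C, an oxysterol-binding-protein relative, had -2.67 in jaz9-1 and -4.28 in Col-0. Mock replicate 2 was above 2 times both other mock libraries, counted after adding 5, for ORP4C in both genotypes and for ACD6 in jaz9-1. CYP707A2, which inactivates abscisic acid, had -2.88 in jaz9-1 and -3.71 in Col-0, and ARCK1, a receptor-like cytoplasmic kinase, had -2.91 in jaz9-1 and -3.66 in Col-0. AT2G17740, a gene for a cysteine- and histidine-rich C1 domain protein, had 0 counts in all 6 libraries with 2, against 15.9, 26.8 and 26.4 with mock in jaz9-1 and 42.1, 27.7 and 82.3 with mock in Col-0, so that its ratio was bounded by the added 5 and by its mock level.

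With 2e and with 12 the same genes stayed much closer to mock. The median log2 ratio of the 80 members with 2e was -0.40 in jaz9-1 and -0.42 in Col-0, with 72 and 69 members below 0. With 12 it was -0.41 in jaz9-1 and -0.58 in Col-0, with 70 and 73 members below 0. The corresponding medians over all genes with a Col-0 mock mean of at least 50 lay between -0.017 and -0.0034. Relative to the log2 ratio with 2, the median member reached 17.4% with 2e and 17.2% with 12 in jaz9-1, and 16.7% with 2e and 23.4% with 12 in Col-0. For each compound and genotype 78 of 80 members were nearer to mock than to 2 on this scale. These medians share the mock libraries with the rule, which favours genes with high mock values.

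**Figure D2:**
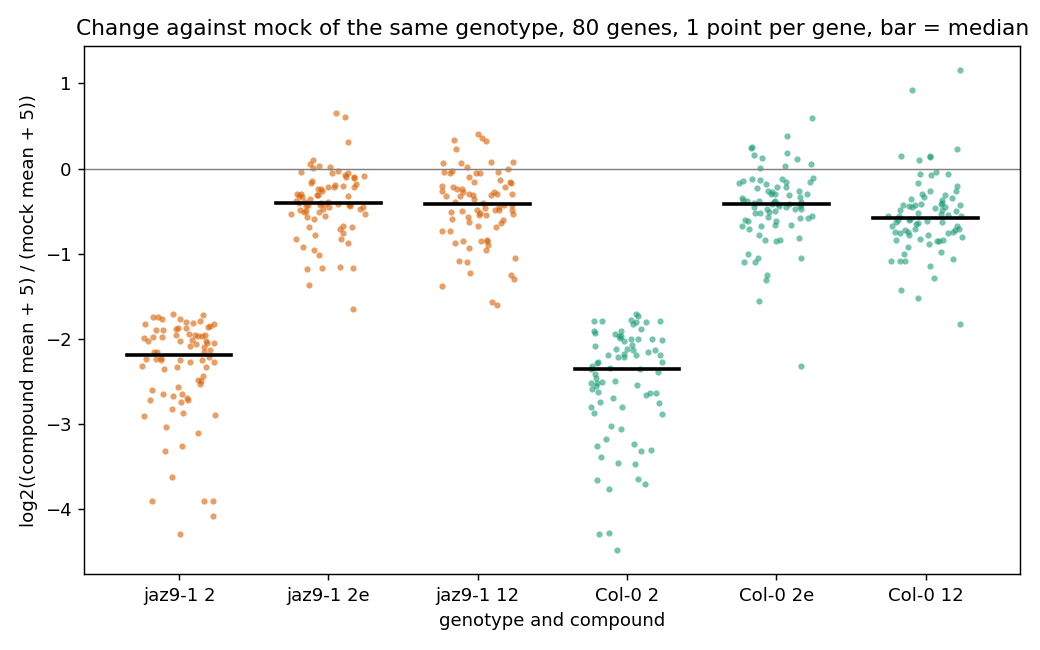
Log2 of the compound mean plus 5 over the mock mean plus 5 for each member (points) with the median (bar), by genotype and compound. With 2 all points lie at -1.7 or lower by the choice of genes, whereas the medians with 2e and 12 lie between -0.58 and -0.40.

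The exceptions differed between the groups. In jaz9-1 GASA6 and AT3G50560 were nearer to 2 with 2e, and WAK1 and AT2G17740 with 12. In Col-0 IRT1 and PELPK2 were nearer to 2 with 2e, and AT3G50560 and the stachyose synthase gene STS with 12. IRT1, the main iron uptake transporter of roots, had 12.7, 8.82 and 27.2 normalised counts with 2e in Col-0, against 210, 16.9 and 76 with mock. The mock libraries of this gene overlapped with those of 2e, and its fitted log2 fold change of -2.62 (95% interval -4.32 to -0.93) had an FDR of 0.119 by edgeR. IRT1 was singled out after its values were seen.

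Each contrast of 2e or 12 with mock was tested for all 20109 genes with sufficient counts by the quasi-likelihood F-test of edgeR, with p-values adjusted over all genes (FDR). A gene is said to rise or fall below an FDR of 0.1. With 2e, 5 members fell in jaz9-1 and 11 in Col-0, where 0.244% and 0.343% of all tested genes fell. The 11 include both AT1G73600 and AT1G73602 (FDR 0.0576 and 0.055), which are 1 measurement but are counted separately throughout. With 12, 8 members fell in jaz9-1 and 21 in Col-0, where 0.482% and 0.855% of all tested genes fell. The tests by edgeR called 0 members higher in these 4 contrasts, as did DESeq2 and limma, although 1.73% of all genes rose with 2e in jaz9-1 and 2.41% in Col-0, and 2.01% with 12 in jaz9-1 and 2.19% in Col-0. At an unadjusted p under 0.05 edgeR counted 1 higher member with 12 in Col-0 and 0 in the other contrasts, against 5.73% and 6.10% of all tested genes with 2e in jaz9-1 and Col-0 and 6.33% and 5.75% with 12. Without the count filter the members that fell were 22 with 2e in jaz9-1 and 23 in Col-0, and 23 with 12 in jaz9-1 and 35 in Col-0. With the compared groups fitted alone they were 27 with 2e in Col-0, and 15 with 12 in jaz9-1 and 37 in Col-0, and both settings called 1 member higher with 12 in Col-0. For that contrast 3 of 6 shoot markers fell as well, and the shoot list summed to 20640 to 23870 CPM with 12 against 25150 to 26290 with mock, a shift whose part in the members' values was not tested. RBCS1A was the highest gene of the shoot list, at 113647 to 529080 counts per library. The mock libraries that entered the rule are the reference of these tests, so the members' counts are not independent of their choice. Single libraries moved these counts, with 2e in jaz9-1 to 14 without jaz9-1 2e replicate 1 and to 2 without jaz9-1 mock replicate 2, with 2e in Col-0 to 5 without Col-0 mock replicate 1 and to 17 without jaz9-1 2 replicate 1, and with 12 in jaz9-1 to 2 without jaz9-1 12 replicate 3. For such other settings, here and below, the shares of all tested genes are not given. Whether all genes shifted alike was not tested.

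At an unadjusted p under 0.05, 29 members were lower with 2e in jaz9-1 and 31 in Col-0, and 29 with 12 in jaz9-1 and 38 in Col-0, where 3.88%, 3.11%, 4.39% and 4.45% of all tested genes were lower. All 3 libraries with 2e lay below all 3 mock libraries for 20 members in jaz9-1 and 31 in Col-0, against 6.28% and 7.01% of all tested genes. For 12 this held for 26 members in jaz9-1 and 48 in Col-0, against 6.84% and 9% of all tested genes. All 3 lay above all 3 mock libraries for 0 members in each of the 4 contrasts, against 7.63% of all tested genes with 2e in jaz9-1 and 9.15% in Col-0, and 8.26% with 12 in jaz9-1 and 9.56% in Col-0. The study's limit of 2.5-fold was passed by 1 called member with 2e in jaz9-1 and 0 in Col-0, where 3 (0.0149%) and 2 (0.00995%) of all tested genes passed it. With 12 it was passed by 1 called member in jaz9-1 and 4 in Col-0, where 11 (0.0547%) and 5 (0.0249%) of all tested genes passed it. Of the 80 members 27 fell in at least 1 of the 4 contrasts, 53 in none, and none in all 4, AT1G73600 and AT1G73602 both being among the 27.

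AT4G29905, an uncharacterized small gene on chromosome 4, fell in 3 of the 4 contrasts. It had 1265, 1358 and 1412 normalised counts with 2e and 1786, 1610 and 1726 with 12 in jaz9-1, against 1982, 2078 and 1910 with mock. In Col-0 it had 1557, 1489 and 1467 with 2e and 1475, 1566 and 1303 with 12, against 2455, 2211 and 2070 with mock. Every treated library lay below every mock library in both genotypes. The log2 fold changes with 2e were -0.56 ± 0.10 in jaz9-1 (SE, FDR 0.000428 by edgeR) and -0.58 ± 0.10 in Col-0 (FDR 0.000185), and with 12 -0.22 in jaz9-1 (FDR 0.381) and -0.63 ± 0.10 in Col-0 (FDR 5.36e-05).

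The XTH and expansin members were XTH4, XTH5, XTH17, XTH19, XTH31, XTH33 and EXLA1. Their median fitted log2 fold change with 2e was -0.46 in jaz9-1 and -0.46 in Col-0, and with 12 it was -0.55 in jaz9-1 and -0.75 in Col-0. With 2e 1 of the 7 fell in jaz9-1 and 2 in Col-0, and with 12 1 fell in jaz9-1 and 4 in Col-0. XTH31, the member with the highest normalised count in Col-0 mock, had 8694, 6539 and 8175 normalised counts with 2e and 6393, 7001 and 6459 with 12 in jaz9-1, against 9878, 9304 and 9847 with mock. In Col-0 it had 7632, 7510 and 6776 with 2e and 6045, 7406 and 5996 with 12, against 9580, 9716 and 10347 with mock. All treated libraries were below all mock libraries of their genotype, and with 2 the gene had 1651 to 2525 in jaz9-1 and 2120 to 2178 in Col-0. It fell with 12 by 0.55 ± 0.11 on the log2 scale in jaz9-1 (SE, FDR 0.00226 by edgeR) and by 0.61 ± 0.11 in Col-0 (FDR 0.000546), and with 2e by 0.44 ± 0.11 in Col-0 (FDR 0.02), while the change with 2e in jaz9-1 was -0.31 (FDR 0.226). The call with 2e in Col-0 was lost without Col-0 2e replicate 3 or Col-0 mock replicate 3 (FDR up to 0.139).

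XTH4 had 5393, 5600 and 6521 normalised counts with 2e in jaz9-1 against 6732, 8451 and 8159 with mock, and fell by 0.42 ± 0.11 (SE, FDR 0.0403 by edgeR). In Col-0 it had 4716, 5966 and 6342 with 2e and 5069, 5327 and 5465 with 12, against 7475, 7399 and 7322 with mock, and fell by 0.38 ± 0.11 with 2e (FDR 0.055) and by 0.48 ± 0.11 with 12 (FDR 0.00739). The groups did not overlap in these 3 comparisons. The call with 2e in jaz9-1 was lost with limma and without jaz9-1 2e replicate 1 or 2 or jaz9-1 mock replicate 2 or 3 (FDR up to 0.219), and that in Col-0 without Col-0 2e replicate 1 or any of the 3 mock libraries (FDR up to 0.416). XTH17 and EXLA1 fell with 12 in Col-0 by 0.75 ± 0.21 (FDR 0.05) and 0.75 ± 0.20 (FDR 0.0317), the call of XTH17 being lost without Col-0 12 replicate 3 or any Col-0 mock library, when its FDR reached up to 0.424.

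XTH19, which the study names, had 476, 223 and 404 normalised counts with 2e and 358, 270 and 248 with 12 in jaz9-1, against 407, 538 and 521 with mock. The Col-0 libraries had 375, 469 and 537 with 2e and 321, 426 and 352 with 12, against 563, 868 and 501 with mock. The libraries with 12 lay below the mock libraries in both genotypes, those with 2e overlapped with them, and none of the 4 changes passed the test (log2 fold change with 2e -0.42 in jaz9-1 and -0.47 in Col-0, FDR 0.684 and 0.634, and with 12 -0.74 and -0.80, FDR 0.227 and 0.129, by edgeR). EXLA2 and XTH23, also named by the study, missed the rule, since the log2 ratio with 2 on the scale of the rule was -2.32 in jaz9-1 and -1.67 in Col-0 for EXLA2, and -1.22 in jaz9-1 and -1.60 in Col-0 for XTH23. EXLA2 fell with 12 in Col-0 by 1.08 ± 0.21 (FDR 0.00182), and XTH23 (listed as XTR6) had -0.42 there (FDR 0.581).

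**Figure D3:**
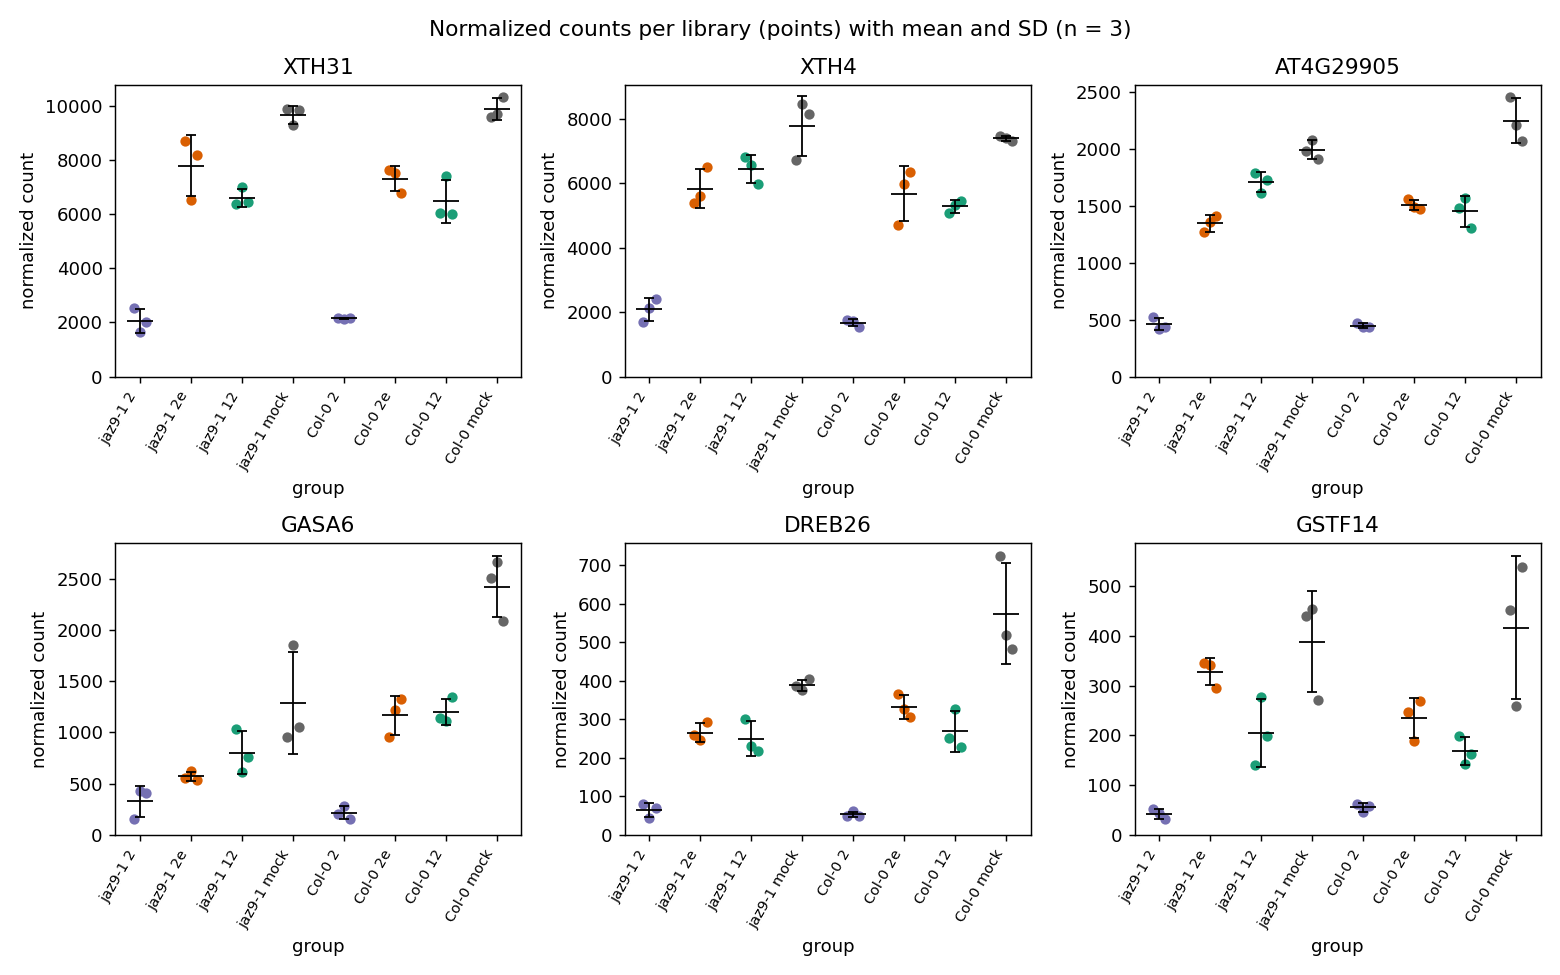
Normalised counts of 6 members in every library (points) with the mean and SD of the 3 libraries (black), by genotype and compound. In each panel the points of 2 are lowest, those of mock highest on average, and those of 2e and 12 lie between the means of 2 and mock.

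Of the 7 growth and hormone genes 1 fell with 2e in each genotype, and with 12 1 fell in jaz9-1 and 5 in Col-0. GASA6, a gibberellin-regulated gene of a small cysteine-rich protein linked to cell elongation, had 558, 620 and 534 normalised counts with 2e in jaz9-1, against 950, 1852 and 1054 with mock. In Col-0 it had 954, 1217 and 1325 with 2e and 1142, 1114 and 1340 with 12, against 2508, 2662 and 2086 with mock. The groups did not overlap. It fell with 2e by 1.18 ± 0.24 in jaz9-1 (log2, SE, FDR 0.00377 by edgeR) and by 1.05 ± 0.23 in Col-0 (FDR 0.00686), and with 12 by 1.01 ± 0.23 in Col-0 (FDR 0.0106), while the change with 12 in jaz9-1 was -0.68 (FDR 0.193). Without jaz9-1 mock replicate 2 the FDR with 2e in jaz9-1 was 0.119.

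Its relative GASA5 was called with 12 and not with 2e. It had 269, 455 and 648 normalised counts with 2e and 250, 263 and 165 with 12 in jaz9-1, against 614, 307 and 503 with mock. The Col-0 libraries had 211, 247 and 203 with 2e and 142, 197 and 147 with 12, against 304, 303 and 329 with mock. It fell with 12 by 1.07 ± 0.25 in jaz9-1 (SE, FDR 0.0151 by edgeR) and by 0.94 ± 0.25 in Col-0 (FDR 0.0353), calls that were lost in jaz9-1 without 12 replicate 3 or mock replicate 1 (FDR up to 0.162) and in Col-0 without 12 replicate 1 or 3 or mock replicate 3 (FDR up to 0.185). Of the other growth genes, AT4G38860, a SAUR-type auxin-responsive gene, AT5G02760, a type 2C protein phosphatase gene, and CYP707A2 fell with 12 in Col-0 by 0.65 ± 0.17, 0.67 ± 0.13 and 1.62 ± 0.47 (FDR 0.0323, 0.00191 and 0.0676). Single libraries of Col-0 12 or mock decided the calls of AT4G38860 (replicates 1 and 3 of 12, 1 and 2 of mock, FDR up to 0.18) and of CYP707A2 (any replicate of 12, 1 and 2 of mock, FDR up to 0.298). The ethylene-forming enzyme gene ACO1 and ORS1, an organ-size gene, passed in none of the 4 contrasts.

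DREB26 was the 1 member among 98 tested AP2/ERF transcription factor genes. It had 258, 245 and 293 normalised counts with 2e and 301, 231 and 217 with 12 in jaz9-1, against 386, 375 and 403 with mock, and 367, 326 and 305 with 2e and 251, 327 and 227 with 12 in Col-0, against 723, 519 and 482 with mock. All treated libraries were below all mock libraries. It fell with 12 by 1.09 ± 0.18 in Col-0 (SE, FDR 0.000122 by edgeR) and by 0.63 ± 0.18 in jaz9-1 (FDR 0.0753), and with 2e by 0.79 ± 0.18 in Col-0 (FDR 0.00654). The call with 12 in jaz9-1 was lost without any 1 of 5 libraries (12 replicate 2 or 3 or any mock library), and that with 2e without Col-0 mock replicate 1 (FDR 0.15). The other 4 transcription factor genes, the bHLH genes AT2G31730 and AT3G61950, the trichome repressor TCL2 and P1R1, passed in none of the 4 contrasts.

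GSTF14, a phi-class glutathione S-transferase gene, had 345, 342 and 296 normalised counts with 2e and 141, 277 and 198 with 12 in jaz9-1, against 439, 454 and 271 with mock. In Col-0 it had 246, 189 and 269 with 2e and 199, 143 and 162 with 12, against 451, 259 and 540 with mock. Only the libraries with 12 in Col-0 lay wholly below the mock libraries. It fell with 12 by 1.32 ± 0.24 in Col-0 (SE, FDR 0.0005 by edgeR) and by 0.95 ± 0.24 in jaz9-1 (FDR 0.029), and with 2e by 0.84 ± 0.23 in Col-0 (FDR 0.0487), the last call being lost with limma and without Col-0 2e replicate 1 or 2 or Col-0 mock replicate 1 or 3 (FDR up to 0.393), and that with 12 in jaz9-1 without 12 replicate 1 or 3 or mock replicate 1 or 2 (FDR up to 0.251). AT3G50560, a Rossmann-fold oxidoreductase gene, had 65.3, 114 and 96.2 with 2e and 75.8, 86.7 and 80.4 with 12 in Col-0, against 197, 271 and 209 with mock, and fell by 1.28 ± 0.31 with 2e (FDR 0.0136, and 0.119 without Col-0 2e replicate 1) and by 1.47 ± 0.31 with 12 (FDR 0.00379).

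Of the 8 genes of other wall proteins and oxidases 1 fell with 2e in jaz9-1 and 0 in Col-0, and 2 fell with 12 in jaz9-1 and 3 in Col-0. The arabinogalactan protein gene AGP30 had 419, 581 and 382 normalised counts with 2e and 267, 171 and 155 with 12 in Col-0, against 441, 451 and 385 with mock. Only the libraries with 12 were below mock, and it fell with 12 by 1.1 ± 0.30 (SE, FDR 0.0446 by edgeR). AT4G32460, a DUF642 wall protein gene, fell with 12 by 0.65 ± 0.18 in jaz9-1 (FDR 0.0596) and by 0.78 ± 0.18 in Col-0 (FDR 0.0106), and AT1G70985 fell with 12 by 0.88 ± 0.25 in jaz9-1 (FDR 0.0653) and by 0.88 ± 0.24 in Col-0 (FDR 0.0474), and with 2e by 0.91 ± 0.25 in jaz9-1 (FDR 0.0593). The calls of AT1G70985 were lost with limma and without mock replicate 1 or 2 of the genotype, jaz9-1 2e replicate 1 or 3, jaz9-1 12 replicate 1 or 3 or Col-0 12 replicate 1 or 2 (FDR up to 0.31), and that of AT4G32460 in jaz9-1 without any library of 12 or mock replicate 1 or 2 (FDR up to 0.276). The proline-rich protein gene PELPK1, the laccase gene LAC7 and the peroxidase gene AT2G39040 passed in none of the 4 contrasts.

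Among lipid, cutin and suberin genes FAR1, a fatty acyl reductase that makes alcohols for suberin, had 189, 193 and 233 normalised counts with 12 in jaz9-1, against 439, 554 and 335 with mock, and fell by 1.12 ± 0.26 (log2, SE, FDR 0.0133 by edgeR). AT4G28780, a GDSL lipase gene, had 423, 538 and 508 with 2e in Col-0, against 725, 796 and 692 with mock, and fell by 0.59 ± 0.15 (FDR 0.0335). Neither pair of groups overlapped, but the call of FAR1 was lost without jaz9-1 mock replicate 2 (FDR 0.118) and that of AT4G28780 without Col-0 2e replicate 1 or Col-0 mock replicate 2 (FDR up to 0.227). DCF, which adds ferulate to cutin, had 527, 592 and 507 with 2e and 517, 487 and 563 with 12 in Col-0, against 473, 533 and 451 with mock, so that its groups overlapped.

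The defence and surface sensing genes were lowered by 2 with a median fitted log2 fold change of -2.11 in jaz9-1 and -3.34 in Col-0. With 2e their median was -0.40 in jaz9-1 and -0.45 in Col-0, and with 12 it was -0.73 in jaz9-1 and -0.39 in Col-0. Only 1 of the 10 passed in any of these 4 contrasts. Some large changes had wide errors and were not called, such as ACD6 with 2e in jaz9-1 (-1.82 ± 0.64, SE, FDR 0.228 by edgeR). PDF2.1 had 138, 114 and 52.7 normalised counts with 12 in jaz9-1, against 507, 157 and 269 with mock, and fell by 1.59 ± 0.39 (SE, FDR 0.0208 by edgeR), a call that was lost without jaz9-1 12 replicate 3 or jaz9-1 mock replicate 1 (FDR up to 0.331). CYP81F2, a P450 of indole glucosinolate modification needed in the response to microbes, had 174, 92.7 and 91.3 with 2e and 285, 96.4 and 157 with 12 in Col-0, against 109, 47.7 and 76 with mock and 18.5, 7.76 and 15.8 with 2. It was thus low with 2 alone, and its log2 fold change with 12 of 1.20 (95% interval 0.24 to 2.15) had an FDR of 0.272. ACD6 had 70.9, 38.3 and 36.2 with 2e in jaz9-1, against 21.9, 399 and 69.8 with mock, of which 1 library was far above the others.

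The groups in the contrast of 2e with 12 held no library of the rule, although the spread was estimated over all libraries. The tests by edgeR called 0 of 80 members in jaz9-1, where 0.00995% of all genes were lower and 0.0547% higher with 2e, and 0 of 80 in Col-0, where 0 of all tested genes passed. DESeq2 and limma also called 0. At an unadjusted p under 0.05, 7 members were lower and 4 higher with 2e in jaz9-1, and 2 lower and 10 higher in Col-0. Of all tested genes 3.32% were lower and 3.48% higher at that p in jaz9-1, and 1.48% lower and 2.55% higher in Col-0. Without the count filter edgeR called 4 members lower and 3 higher in jaz9-1 and 4 lower and 2 higher in Col-0, and with the compared groups alone 1 higher in Col-0. The median log2 fold change of 2e over 12 was 0.01 in jaz9-1 and 0.19 in Col-0, against 0.0034 and 0.00064 for all tested genes. The 95% interval of a member's difference reached a median of 0.584 to either side in jaz9-1 and 0.565 in Col-0, and lay wholly within 1 log2 unit for 49 and 50 members.

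The lowest adjusted p-values in this contrast belonged to GASA5 in jaz9-1 and AGP30 in Col-0. GASA5 had 269, 455 and 648 normalised counts with 2e in jaz9-1, against 250, 263 and 165 with 12, a log2 fold change of 1.04 (95% interval 0.53 to 1.54, FDR 0.216 by edgeR). AGP30 had 419, 581 and 382 with 2e in Col-0, against 267, 171 and 155 with 12, a log2 fold change of 1.22 (95% interval 0.61 to 1.83, FDR 0.368). Both genes had all libraries of 2e above all of 12, which held with 2e higher for 3 members in jaz9-1 and 15 in Col-0, against 5.90% and 6.22% of all tested genes, and with 2e lower for 4 and 3, against 5.95% and 5.41%. XTH31 and XTH4 had differences of 0.24 (0.02 to 0.46) and -0.14 (-0.36 to 0.08) in jaz9-1, and of 0.17 (-0.05 to 0.39) and 0.10 (-0.12 to 0.32) in Col-0.

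**Figure D4:**
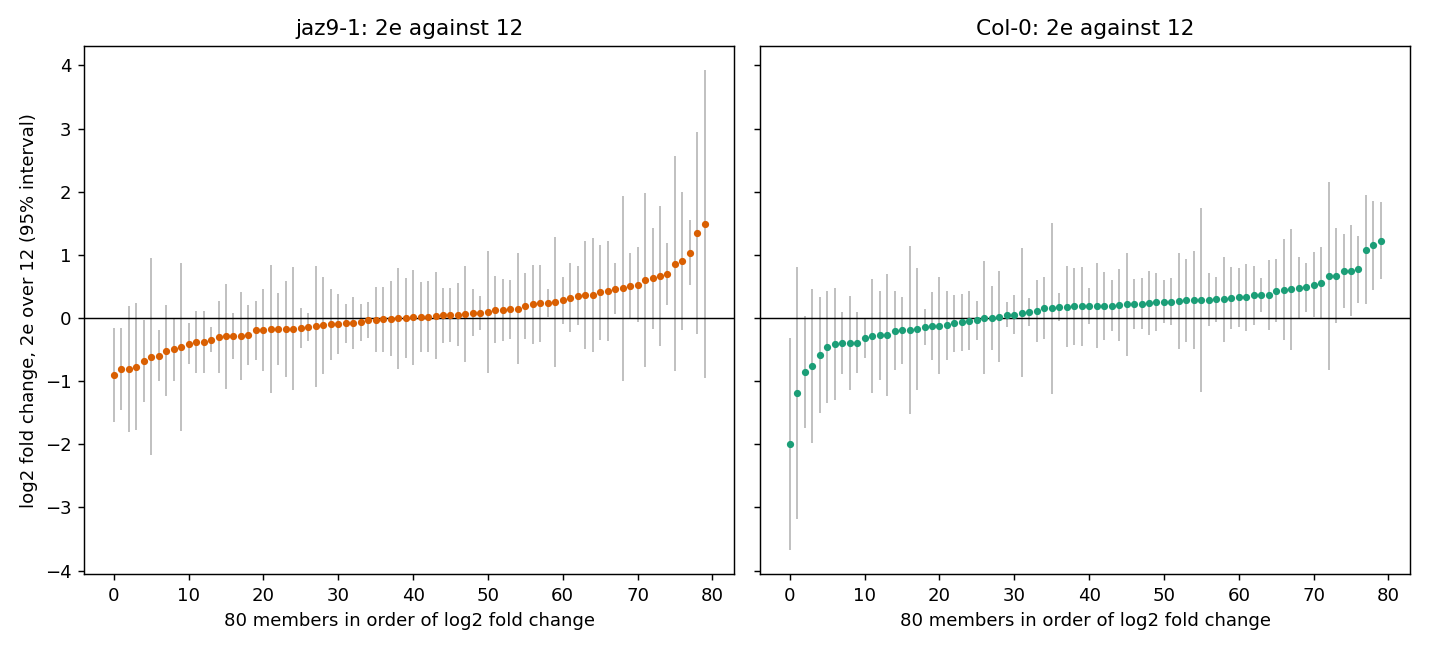
Log2 fold change of 2e over 12 for each member in jaz9-1 (left) and Col-0 (right) in order of size, with the 95% interval from the edgeR fit. The medians are 0.01 and 0.19 and no member passed an FDR of 0.1.

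The genotypes were compared under 2e and under 12, contrasts whose groups held no library of the rule. The spread behind their tests was estimated over all libraries, those of the rule included. The rule also set its mock limit in Col-0 only, which can favour genes higher in Col-0. Under 2e, 10 members were lower and 3 higher in jaz9-1 than in Col-0 at an FDR below 0.1, against 2.11% and 1.24% of all tested genes. Under 12, 5 were lower and 1 higher, against 1.56% and 1.86% of all tested genes. Without the count filter 22 were lower and 8 higher under 2e, and 17 lower and 10 higher under 12, where the compared groups alone gave 17 lower and 12 higher. The median log2 fold change of jaz9-1 over Col-0 was -0.31 under 2e, with 53 of 80 members below 0, and -0.04 under 12, with 42 below 0. Under mock, whose libraries entered the rule, it was -0.30 with 53 below 0. The 3 jaz9-1 libraries lay wholly below those of Col-0 for 17 members under 2e and 13 under 12, against 10% and 9.92% of all tested genes, and wholly above for 4 and 17, against 9.17% and 10.2%. CIPK20, a kinase gene of calcium signalling, and AT5G08760 were lower under both, although the calls of AT5G08760 were lost in 16 of 30 other settings under 2e and in 7 under 12. Without jaz9-1 2e replicate 1, 18 members were lower in jaz9-1 under 2e, and without Col-0 2e replicate 1 or 3 or jaz9-1 2e replicate 2 there were 5 and without jaz9-1 2e replicate 3 there were 6. Under 12, the lower count was 2 without Col-0 12 replicate 1 or 3 or jaz9-1 12 replicate 1 or 3, and 8 without jaz9-1 2e replicate 1.

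CIPK20 had 248, 149 and 134 normalised counts under 2e in jaz9-1, against 438, 455 and 343 in Col-0, and 171, 168 and 169 under 12 in jaz9-1, against 321, 393 and 339 in Col-0. All jaz9-1 libraries were below all Col-0 libraries. The log2 fold changes were -1.24 ± 0.21 under 2e (SE, FDR 0.00031 by edgeR) and -1.06 ± 0.21 under 12 (FDR 0.00271). Under mock the gene had 240, 164 and 312 in jaz9-1, against 713, 593 and 600 in Col-0, so that the order of the genotypes was the same without a compound.

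Under 2e AT4G38860 had 424, 262 and 243 in jaz9-1, against 638, 553 and 538 in Col-0 (log2 fold change -0.91 ± 0.17, SE, FDR 0.0022 by edgeR). AT1G65490 had 61.6, 55.6 and 70.0 in jaz9-1, against 174, 280 and 180 in Col-0 (-1.76 ± 0.36, FDR 0.00417). GASA6 and DCF were also lower in jaz9-1, by 1.03 ± 0.24 and 0.65 ± 0.16 (FDR 0.0133 and 0.0183). GASA5, AT4G28780 and PELPK2 were higher, by 1.06 ± 0.24, 0.67 ± 0.15 and 1.21 ± 0.38 (FDR 0.0122, 0.0125 and 0.095), and the last of these calls was lost in 17 of 30 other settings. The call of GASA5 was lost without jaz9-1 2e replicate 3 (FDR 0.246) and that of AT4G28780 without Col-0 2e replicate 1 (FDR 0.112).

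Under 12 AT5G44568, an uncharacterized gene, had 40.1, 49.1 and 47.5 normalised counts in jaz9-1, against 286, 95 and 170 in Col-0 (log2 fold change -2.02 ± 0.38, SE, FDR 0.00171 by edgeR). WAK1, a wall-associated kinase that binds pectin, had 54.0, 49.1 and 47.5 in jaz9-1, against 271, 119 and 218 in Col-0 (-2.00 ± 0.52, FDR 0.0338, and up to 0.15 without any jaz9-1 library or Col-0 replicate 1 or 3). The groups did not overlap for either gene. Once the mock levels were taken off, the genotype difference (log2) was -1.34 (95% interval -2.41 to -0.28) for AT5G44568. For WAK1 it was -1.09 (-2.53 to 0.36), and neither passed an FDR of 0.1 by edgeR. AT1G67910 was the member higher in jaz9-1 under 12, with 348, 364 and 302 against 198, 196 and 196 in Col-0 (0.77 ± 0.23, FDR 0.0741, and up to 0.235 with limma or without any 1 of these 6 libraries). It was also high with mock, at 572, 454 and 373 in jaz9-1 against 214, 234 and 172 in Col-0.

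The difference between the genotypes in the response itself was tested as an interaction. The tests by edgeR called 0 of 80 members for 2e and 0 for 12, as did DESeq2 and limma, and of all tested genes 0 passed for 2e and 0.00497% for 12. Without the count filter edgeR called 2 members for 2e and 3 for 12. At an unadjusted p under 0.05 there were 2 lower and 3 higher members for 2e, against 2.28% and 2.05% of all tested genes, and 3 lower and 5 higher for 12, against 2.74% and 3.13%. The lowest adjusted p among the members was 1 for 2e and 0.54 for 12, and the 95% interval reached a median of 0.807 and 0.814 log2 units to either side.

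A single library of 2e-treated jaz9-1 stood apart in part of the list. In replicate 1 of this group 14 members (17.5%) were above 2 times both other replicates, counted after adding 5, whereas 0.303% of the 15182 genes with a Col-0 mock mean of at least 50 were so in that library. The other 23 libraries had 0 to 6 such members. The 14 genes were AT5G08760, CYP71B24, ARCK1, AT2G17740, AT1G26420, WAK1, AT5G44585, AT1G65500, CYP71B23, AT2G43620, XBAT34, STS, AT3G22060 and CYP81F2, and they were picked by these values, so their levels are a description.

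AT2G43620, a chitinase-family gene, had 5713, 1225 and 495 normalised counts with 2e in jaz9-1, against 1928, 3351 and 2550 with mock. ARCK1 had 108, 16.3 and 3.85 with 2e, against 33.8, 85.5 and 113 with mock, and AT1G26420, a berberine-bridge-type oxidase gene, had 97.7, 7.66 and 7.69, against 7.95, 31.9 and 29.0. By the way they were picked, replicate 1 was the highest of the 3 libraries with 2e for all 14 genes. Of the 14, 10 (71.4%) had W-box letters within 250 bases of the start, against 29.1% of all members, the 14 included, and 28.2% of tested genes. The 14 were picked by their values in 1 library, and this share was not tested. The sequences of CYP81F2, CYP71B24 and AT2G43620 shown above are examples chosen because they carry these letters. Without this library 14 members fell with 2e in jaz9-1 in place of 5, and whether all tested genes shifted alike was not tested.

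**Figure D5:**
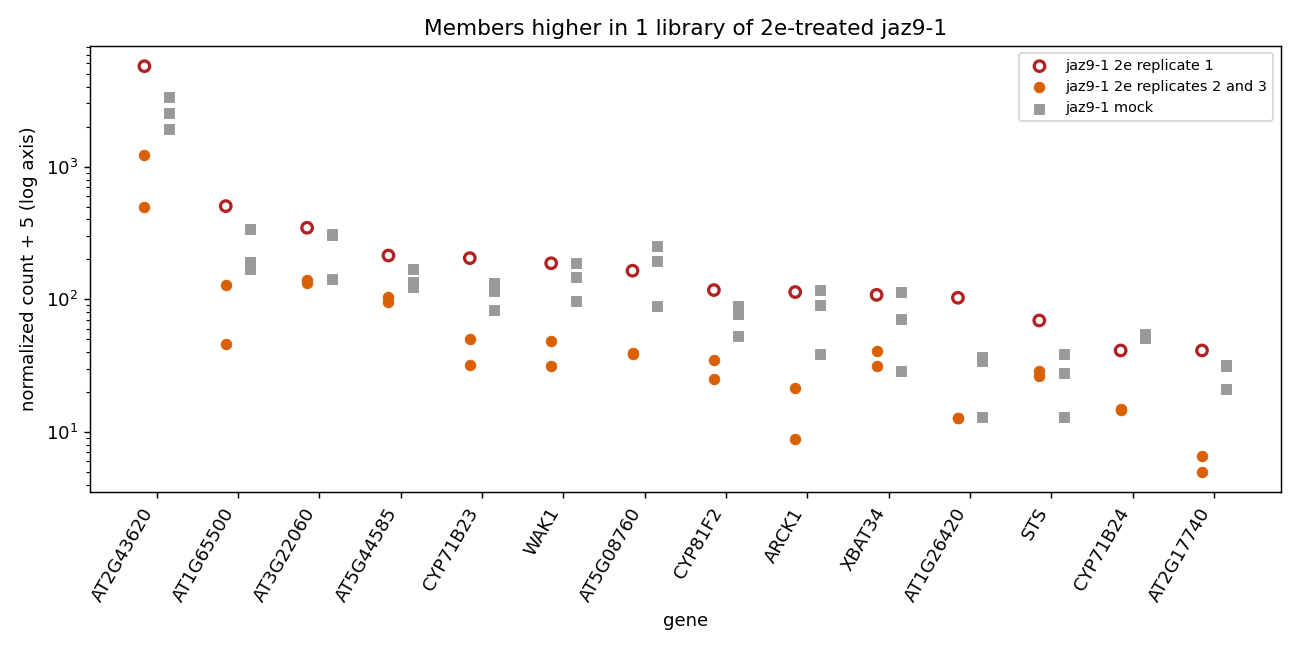
Normalised count plus 5 on a log axis for the 14 members that were high in replicate 1 of 2e-treated jaz9-1 (open red circles), with replicates 2 and 3 of that group (orange circles) and the 3 jaz9-1 mock libraries (grey squares). For AT2G43620 replicate 1 is at 5713 normalised counts and the other replicates are at 1225 and 495.

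The families from which members came moved unevenly with 2. Of 29 tested XTH genes 18 were lower and 3 higher with 2 in jaz9-1, and 20 lower and 3 higher in Col-0, 6 of them being members. With 2e 2 of the 29 fell in jaz9-1 and 4 in Col-0, and with 12 3 fell in jaz9-1 and 5 in Col-0, with 0 higher in all 4 contrasts. Of 44 arabinogalactan protein genes 25 were lower with 2 in jaz9-1 and 24 in Col-0, and 0 higher. Of 61 SAUR genes 18 were lower and 6 higher in jaz9-1, and 27 lower and 2 higher in Col-0. Cytochromes P450, of which 4 are members, moved both ways, with 21 lower and 54 higher of 169 in jaz9-1 and 30 lower and 46 higher in Col-0. Their median log2 fold change with 2 was 0.28 in jaz9-1 and 0.02 in Col-0. Of all tested genes 14.2% were lower and 14.9% higher with 2 in jaz9-1, and 11.2% lower and 11.9% higher in Col-0. The median log2 fold change with 2 was -0.67 in jaz9-1 and -0.91 in Col-0 for the XTH genes, against -0.03 and -0.02 for all tested genes. These counts and medians with 2 include the members, which the rule fixed as lower. They also use the libraries of the rule, so they are a description, and values without the members are not given.

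Members lay close together in the genome more than once. Counting protein-coding genes in order, 14 of the 79 mapped members had another member within 5 genes. The number for other sets of genes was not counted, so whether this is many is not known. AT1G65486, AT1G65490 and AT1G65500 are direct neighbours on chromosome 1, PELPK1 and PELPK2 are adjacent on chromosome 5, and CYP71B23 lies near CYP71B24 on chromosome 3. AT5G44568, AT5G44578 and AT5G44585 form a further group on chromosome 5, where CYP81F2 lies near ORP4C and AT5G57760 near P1R1. Reads can be shared between neighbouring copies, which leaves their individual counts uncertain. The members had a median gene length of 1818 bases against 2381 for all tested genes, and 13 members (16.2%) had an uncharacterized RefSeq product against 5.48% of tested genes.

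The limit of the rule cut through a continuous range. The members closest to it were LAC7, ACO1 and AT4G38860, whose higher ratios of both genotypes were -1.705, -1.709 and -1.725. The genes just outside were AT4G02330, from the invertase and pectin methylesterase inhibitor family, the glucosidase gene BGLU40 and AT4G34810, a SAUR-like gene, at -1.699, -1.696 and -1.693.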

How the data were processed

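RNA was measured in 24 libraries, 3 for each of 8 groups taken from the sample titles. The authors made the deposited counts with Trimmomatic 0.39, HISAT2 2.2.1 (intron limit 5000) and featureCounts 2.0.1 on strand setting 1, and reads over several genes were counted for each. The deposited normalised table holds a signal, those counts divided by 1 DESeq2 1.30.1 size factor per library. It gave whole reads for 100% of values within 0.01, and all equalled the counts, so the test on recovered reads is the test on the counts. Its 8 unnamed values per gene were not used. The labels name the build TAIR10, and names and sequences are from RefSeq TAIR10.1, which matched 26719 genes. Both TruSeq and Lasy-Seq 1.1 are given as library preparation.

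From these counts the fits were made with edgeR 4.0.16 in R 4.3.3 (filterByExpr, 20109 genes, TMM, 1 coefficient per group over all libraries, quasi-likelihood F-test, Benjamini-Hochberg). Alternatives were DESeq2 1.42.0, limma 3.58.1 on quantile-normalised values, RLE scaling, no count filter, fits of the compared groups alone, a replicate block, an FDR of 0.05, a 2.5-fold limit and each library left out. The code was tested on simulated data. The members and lists were chosen with earlier results of these data known. Genes named are the 12 lowest ratios, up to 3 per family with 2 or more members, up to 6 per contrast and direction by FDR, those nearest the limit and the 3 the study names, and other genes were chosen after their values were seen. Replicates are pools of seedlings, so p-values measure the spread between these libraries alone.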

Additional observations from a re-analysis of the deposited data

How the results depend on the processing

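The rule gave 102 members with a pseudocount of 1 and 88 with TMM-scaled counts, holding all 80, and 74 to 94 when 1 library was left out. The other values are numbers of members below an FDR of 0.1, given without the shares of all tested genes. The cause of each shift, and whether all genes shifted alike, was not tested.

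Lower with 2e against mock in jaz9-1 (5 by the reported fit) were 22 without a count filter, 1 at 2.5-fold and 2 to 14 with 1 library left out (8 without jaz9-1 2 replicate 1 or 2, 14 without jaz9-1 2e replicate 1, 3 without jaz9-1 2e replicate 2, 2 without jaz9-1 mock replicate 2). In Col-0 (11) they were 23 without a count filter, 27 with the compared groups alone, 0 at 2.5-fold and 5 to 17 (7 without Col-0 2e replicate 1, 5 and 6 without Col-0 mock replicates 1 and 3, 17 without jaz9-1 2 replicate 1). Lower with 12 in jaz9-1 (8) were 23 without a count filter, 15 with the groups alone, 5 at an FDR of 0.05, 1 at 2.5-fold and 2 to 11 (5 and 2 without jaz9-1 12 replicates 1 and 3, 3 without jaz9-1 mock replicate 1 or 2). In Col-0 (21) they were 35 without a count filter, 37 with the groups alone, 4 at 2.5-fold and 14 to 26, and 1 was higher without a count filter and with the groups alone. The other counts of higher members stayed at 0 to 0.

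For 2e against 12 in jaz9-1 (0) there were 4 lower and 3 higher without a count filter and 0 to 1 higher with 1 library left out (1 without jaz9-1 2e replicate 1), and in Col-0 (0) 4 lower and 2 higher without a count filter and 1 higher with the groups alone. Under 2e, lower in jaz9-1 than in Col-0 (10) were 22 without a count filter, 1 at 2.5-fold and 5 to 18, and higher (3) were 8, 0 and 1 to 3 (1 without jaz9-1 2e replicate 3). Under 12, lower (5) were 17 without a count filter, 3 with limma, 17 with the groups alone, 3 at an FDR of 0.05 and 2 to 8. Higher under 12 (1) were 10 without a count filter, 3 with DESeq2, 0 with limma, 12 with the groups alone, 0 at an FDR of 0.05, 0 at 2.5-fold and 0 to 3 (0 without Col-0 12 replicate 3 or jaz9-1 12 replicate 1 or 2, 2 without jaz9-1 2 replicate 1 or 3, 3 without jaz9-1 2 replicate 2). A genotype difference in the response was called without a count filter for 2 members with 2e and 3 with 12.

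With the replicate number as a block the counts were 6 and 11 lower with 2e in jaz9-1 and Col-0, 10 and 21 with 12, 11 lower and 3 higher between genotypes under 2e, and 6 and 1 under 12. Same-numbered libraries correlated between -0.0308 and 0.0646 over 39 pairs of libraries in 13 comparisons. In 20 pairs the library correlated best with its own number, and in 4 comparisons all 3 pairs did, but no pair was above 0.1. Whether same-numbered libraries were handled together is not stated in the labels and cannot be settled by these correlations. All 54 calls of named members were kept with the block, 22 of them under all 30 settings, and 0 reversed.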
